A study of Mus musculus with 30 samples.

Results

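The transcripts of 10 keratin genes were followed in mouse retinal pigment epithelium (RPE) through the day: Krt5, Krt14 and Krt15 of basal stratified layers, Krt12 of the cornea, Krt4 and Krt13 of mucosal stratified layers such as conjunctiva, and Krt7, Krt8, Krt18 and Krt19 of simple epithelia. They were picked by gene symbol from a table of 51904 genes, and all 10 were found, among 54 keratin genes of the table. The 30 libraries came from 1 eye each of 30 male wild-type C57BL/6 mice, 10 to 13 weeks old, with 5 mice at each zeitgeber time (ZT, hours on the light schedule): 0, 2, 4, 9, 14 and 19. The labels give no further allele and no agent for any group, and the 6 groups are set apart by the time of death. Per the labels the front of the eye, with cornea, iris and lens, and the retina were taken away first, and RPE was then lifted with forceps from choroid and sclera. The eyes were 16 left and 14 right, and all 5 of ZT4 were left eyes.

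Keratins are the intermediate filament proteins of epithelial cells. A filament is built from heterodimers of an acidic type I and a basic type II keratin, so each cell makes at least 1 of either type, and the partners differ with the kind of epithelium. Krt5 with Krt14 or Krt15 marks the basal layer of stratified epithelium, Krt12 is the type I keratin of corneal epithelium, Krt4 with Krt13 is the set of non-cornified mucosa, and Krt8 with Krt18 is the set of simple epithelia, the RPE among them. Krt7 and Krt19 are simple-type keratins that conjunctival and ductal epithelia also make.

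The values are FPKM, fragments scaled to transcript length and library depth, so levels can be set beside each other between genes. RPE transcripts were abundant in the samples, with a median of 2404.8 FPKM for Rgr, 4251.0 FPKM for Ttr and 933.7 FPKM for Rpe65, while Best1, another RPE gene, had a median of 0.607 FPKM. The 10 keratins together made 0.284% to 1.93% of a sample's summed FPKM, with a median of 1.08%. The library ZT14 replicate 3 stood apart: it listed 537 genes at 0 whose median over the samples was at least 10 FPKM, against a median of 7.5 such genes over all 30 samples, and it had 12754 genes above 0 where the median was 17607. All 10 keratins were above 1 FPKM in that library as in the other 29.

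The type I genes Krt12 (ENSMUSG00000020912, chr11:99415666-99422259), Krt13 (ENSMUSG00000044041, chr11:100117327-100121566), Krt15 (ENSMUSG00000054146, chr11:100131758-100135928), Krt19 (ENSMUSG00000020911, chr11:100140810-100148665) and Krt14 (ENSMUSG00000045545, chr11:100203162-100207548) lie on the minus strand of chromosome 11 in GRCm38, the assembly also called mm10. The type II genes lie on chromosome 15: Krt7 (ENSMUSG00000023039, chr15:101411043-101430313, plus strand), Krt5 (ENSMUSG00000061527, chr15:101707070-101712898), Krt4 (ENSMUSG00000059668, chr15:101918535-101924735) and Krt8 (ENSMUSG00000049382, chr15:101996698-102004482), the last 3 on the minus strand. Krt18 (ENSMUSG00000023043, chr15:102028180-102032027, plus strand) is the type I gene that sits beside Krt8 on chromosome 15, at a gap of 23.7 kb with no other keratin gene between. Krt13 and Krt15 are 10.2 kb apart and Krt15 and Krt19 4.9 kb apart, while 695.1 kb and 11 keratin genes separate Krt12 from Krt13.

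The bases before the start sites of 4 of these genes, 1 for each pattern described below, are shown first, because Krt12, Krt5, Krt13 and Krt18 varied differently across the samples. They come from RefSeq promoter windows on GRCm38.p6, in which 7 of the 10 members were found, and run 5′ to 3′ on the gene's strand up to the base before the start site, or for Krt18 up to the base before the annotated gene. Capitals mark ATAAA, a run of 5 letters that forms part of the TATAAA box.
Krt12 (chr11:99422260-99422359, minus strand): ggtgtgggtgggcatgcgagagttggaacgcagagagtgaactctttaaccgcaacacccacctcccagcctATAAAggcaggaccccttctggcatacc
Krt5 (chr15:101712906-101713005, minus strand): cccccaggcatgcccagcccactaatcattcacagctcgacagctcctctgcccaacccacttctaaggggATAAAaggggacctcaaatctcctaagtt
Krt13 (chr11:100121567-100121666, minus strand): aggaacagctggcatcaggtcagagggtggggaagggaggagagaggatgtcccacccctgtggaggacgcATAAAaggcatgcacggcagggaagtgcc
Krt18 (chr15:102028116-102028179, plus strand): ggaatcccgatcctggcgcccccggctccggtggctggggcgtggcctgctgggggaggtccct
The first base of ATAAA lies 28 bases before the start in Krt12 and 29 bases before it in Krt5 and Krt13, and the 100 bases before the start of Krt18 hold no ATAAA on either strand, 36 of them inside the annotated gene and not shown. Of 32851 RefSeq windows of this length, 17.5% hold ATAAA on either strand, and 3.8% hold it on the gene's strand with its first base 20 to 35 bases before the start. Of the members' 8 windows 5 hold ATAAA on either strand and 3, those of Krt12, Krt5 and Krt13 shown here, hold it at that distance. The windows of Krt14, Krt8 and Krt18 hold none. Those of Krt14, Krt8 and Krt7 and the second window of Krt13 lie wholly inside the annotated gene. They do not show the bases before it, so the counts over the 8 windows do not describe upstream sequence alone. The full TATAAA, of which ATAAA is the end, was found in Krt12 alone among the 8 windows of the members, against 5.6% of all windows. CACGTG, the E-box that core clock factors bind, was in 0 of the members' 8 windows and in 3.2% of all windows. ATAAA was chosen after the sequences had been read, and a match of letters describes the window only.

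Krt12 held the highest median of the 10, at 2034.3 FPKM, and also by far the widest range. It was followed by Krt15 (median 1763.8 FPKM), Krt5 (1632.9), Krt13 (731.8), Krt4 (243.3), Krt19 (179.7), Krt18 (170.3), Krt14 (167.6), Krt7 (68.78) and Krt8 (68.35). Several neighbours in this order could not be separated: Krt12 was above Krt15 in 14 of 30 samples, Krt19 above Krt18 in 16, Krt18 above Krt14 in 14 and Krt7 above Krt8 in 16. Other steps held in most samples, with Krt13 above Krt4 in 30 of 30, Krt14 above Krt7 in 27, Krt5 above Krt13 in 26, Krt4 above Krt19 in 26 and Krt15 above Krt5 in 25. Each member thus stood among the abundant transcripts of these samples: even Krt8 had a median above that of 90.9% of the 16741 genes tested. In bulk samples such as these, fewer cells of a type and less RNA per cell cannot be told apart.

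**Figure D1:**
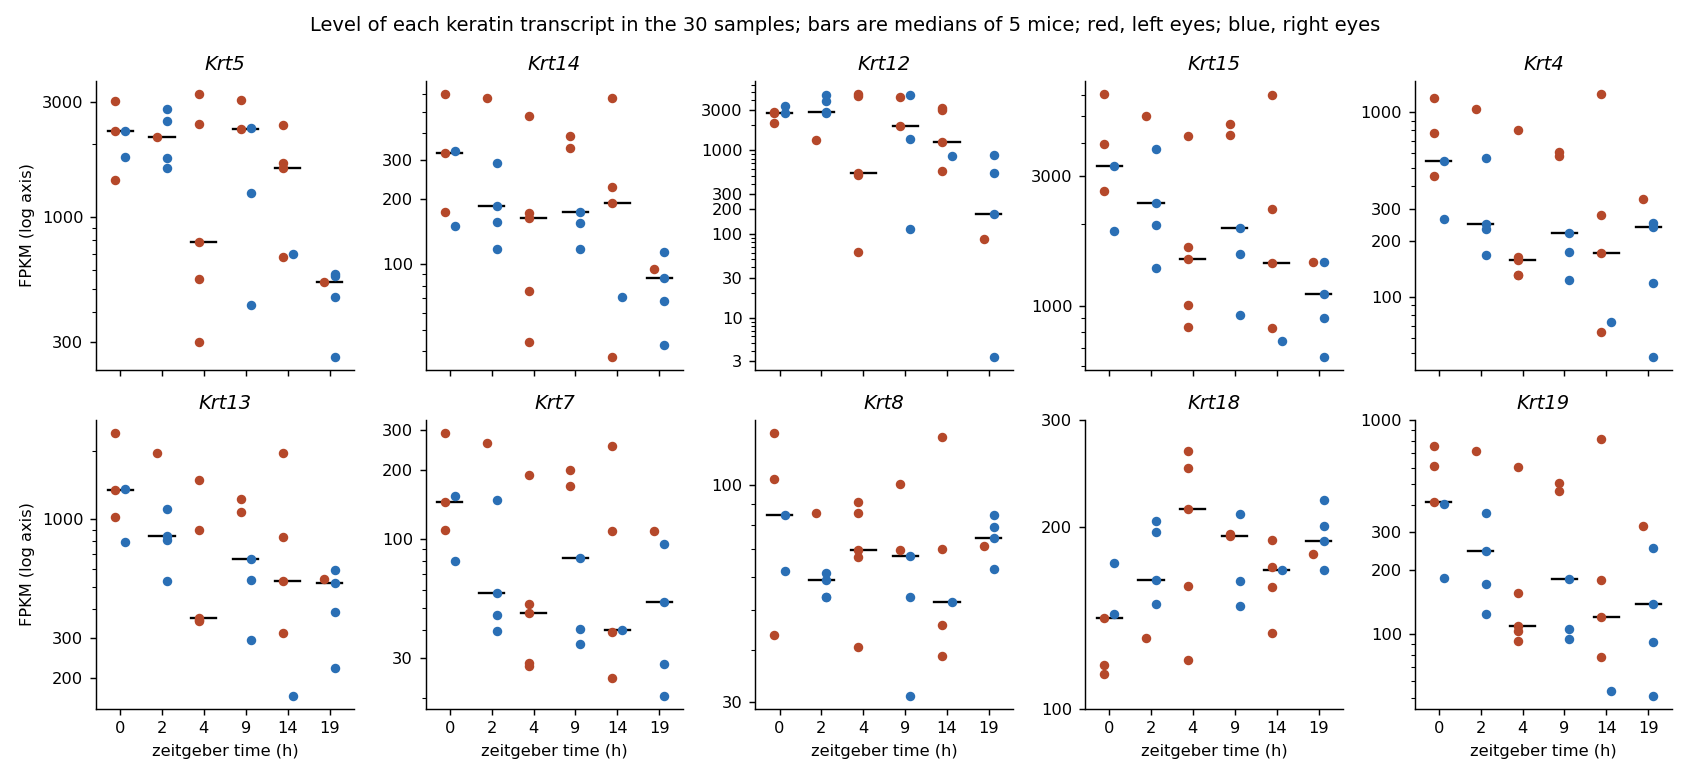
FPKM of each of the 10 keratin transcripts (vertical log axis, a separate scale for each gene) by zeitgeber time in hours. Each point is 1 mouse, red for left and blue for right eyes, and each bar is the median of 5 mice. Krt12 spans 3.43 to 4704.1 FPKM, whereas Krt18 stays between 114.3 and 266.7 FPKM.

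Among the basal keratins, Krt5, the type II partner of the basal layer, was at least 1422.7 FPKM in every mouse of ZT0 and ZT2 and at most 575.6 FPKM in every mouse of ZT19. Its 5 values were 3040.6, 2278.9, 2274.7, 1768.7 and 1422.7 FPKM at ZT0. At ZT19 they were 575.6, 536.5, 261.1, 564.8 and 462.7 FPKM. No ZT19 sample reached the lowest of ZT0. Between these times the mice differed widely: Krt5 ran from 300.6 to 3235.4 FPKM at ZT4, from 430.2 to 3067.4 at ZT9 and from 675.7 to 2410.2 at ZT14. Krt14, its type I partner, was lower, at 601.9, 331.2, 323.3, 149.3 and 173.1 FPKM at ZT0 and at 114.0, 94.93, 67.81, 86.79 and 42.63 FPKM at ZT19. Krt15, the other basal type I keratin and a marker of limbal and conjunctival basal cells, had 6038.2, 3271.4, 3935.8, 1888.3 and 2641.7 FPKM at ZT0 and 1443.1, 1448.5, 896.5, 1106.7 and 647.9 FPKM at ZT19. For both type I genes, too, the lowest ZT0 value lay above the highest ZT19 value. The same held for 2.99% of all genes tested. Krt5 was above Krt14 in 30 of 30 samples, by 3.67-fold to 17.9-fold with a median of 7.23-fold, and above Krt15 in 5 of 30. Krt14 belongs with Krt16 and Krt17 to a group of closely similar sequences, and how the authors divided shared reads is not given in the sources used here.

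Krt12, the corneal type I keratin, was the most variable member. At ZT0 the 5 mice were close together, at 2805.8, 2803.0, 2862.5, 3394.2 and 2133.2 FPKM. At ZT2 they had 3855.5, 1333.1, 2836.9, 2905.8 and 4591.0 FPKM. At ZT4 the values were 4462.1, 541.0, 502.7, 61.42 and 4704.1 FPKM, so that 2 mice stood far above the other 3. The spread of ZT9 was of the same kind, with 116.4, 4628.8, 4299.2, 1935.4 and 1371.5 FPKM. ZT14 mice had 3010.7, 564.2, 860.5, 3202.1 and 1247.0 FPKM. At ZT19 all 5 were below every ZT0 and ZT2 mouse, with 173.7, 86.51, 3.43, 533.9 and 887.9 FPKM. Of all genes tested, 2.99% had every ZT19 mouse below every ZT0 mouse. The SD of log2(FPKM + 1) was 0.240 at ZT0 and 0.683 at ZT2, and 2.60 at ZT4, 2.16 at ZT9, 1.10 at ZT14 and 3.01 at ZT19 (n = 5 each). Over all samples the ratio of highest to lowest was 1373.5, or 76.6 without ZT19 replicate 3, and 99.7% of the genes tested had a smaller SD. Krt12 alone made up 0.138% to 47.3% of the summed FPKM of the 10 keratins.

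Of the mucosal keratins Krt4 (type II) and Krt13 (type I), Krt4 followed another order of samples than Krt12. Krt4 was highest in ZT14 replicate 2, ZT0 replicate 1 and ZT2 replicate 2, at 1255.5, 1190.0 and 1049.5 FPKM, and those samples held 564.2, 2805.8 and 1333.1 FPKM of Krt12. The highest Krt12 values, those of ZT4 replicate 5, ZT9 replicate 2 and ZT2 replicate 5, came with 130.8, 123.0 and 232.8 FPKM of Krt4, all below its median. The next highest Krt12 values, in ZT4 replicate 1 and ZT9 replicate 3, came with 803.8 and 613.9 FPKM of Krt4, both above its median. The ratio of Krt4 to Krt12 went from 0.0266 to 73.2, and to 3.95 without ZT19 replicate 3, the library with the least Krt12. That of Krt4 to Krt13 stayed between 0.147 and 0.642. Krt13 ranged from 166.3 FPKM in ZT14 replicate 3 to 2397.7 FPKM in ZT0 replicate 1, also the sample with the most Krt14 and Krt15. It had 2397.7, 1356.7, 1343.6, 796.2 and 1018.6 FPKM at ZT0 and 593.7, 545.6, 522.4, 388.0 and 219.9 FPKM at ZT19. These values did not overlap, which held for 2.99% of all genes in this direction. Krt4 did overlap between these times, since its ZT19 maximum of 341.4 FPKM lay above its ZT0 minimum of 263.5 FPKM.

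Of the simple keratins, Krt19 (type I, a filament protein without the usual tail) and Krt7 (type II) varied with Krt4, with r of 0.97 and 0.95. Krt19 ran from 51.33 to 812.8 FPKM and Krt7 from 20.58 to 290.7 FPKM, ranges of 15.8-fold and 14.1-fold. Both were lowest in ZT19 replicate 5, as was Krt4. Krt19 was highest in ZT14 replicate 2, the sample with the most Krt4, and Krt7 in ZT0 replicate 1. Krt7 was below Krt19 in 30 of 30 samples, with a ratio of 0.210 to 0.740.

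Krt18, the type I keratin of simple epithelia, was the steadiest member. Its values were 114.3, 174.3, 118.2, 143.4 and 141.0 FPKM at ZT0 and 221.6, 180.0, 169.4, 189.5 and 200.3 FPKM at ZT19. At ZT4 it had 120.6, 250.3, 213.7, 266.7 and 159.7 FPKM, so the lowest value of ZT4 came from replicate 1, the mouse with 4462.1 FPKM of Krt12, and the highest from replicate 4, the mouse with 61.42 FPKM. The ratio of highest to lowest over all 30 samples was 2.33, the SD of log2(FPKM + 1) was 0.305, and 6.8% of the genes tested had a smaller SD. Krt8, its type II partner, ranged from 31.0 to 133.0 FPKM, a 4.29-fold range, with its maximum in ZT0 replicate 1, the sample with the least Krt18. The ratio of Krt8 to Krt18 was below 1 in 29 of 30 samples, at a median of 0.351, and 1.16 in ZT0 replicate 1. Both genes have processed pseudogenes, so reads that such copies share could have been assigned elsewhere.

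Pairwise correlations of log2(FPKM + 1) over the 30 samples were computed for all 45 pairs of members, with p from 100000 permutations adjusted by the Benjamini-Hochberg method over the 45 pairs. Krt14, Krt15, Krt4, Krt13, Krt7 and Krt19 formed a close set, with Pearson r from 0.82 (Krt14 and Krt7) to 0.97 (Krt4 and Krt19). Krt4 and Krt13 had r = 0.91 and Spearman rho = 0.87, both with adjusted p = 2.37e-05 from the smallest p, 1e-05, that these permutations can give. Krt7 and Krt19 had r = 0.93 and rho = 0.94 at the same adjusted p. Without the 2 samples farthest from the median of the first gene the 2 values of r were 0.89 and 0.92, and in left and right eyes they were 0.92 and 0.87 for Krt4 with Krt13 and 0.96 and 0.84 for Krt7 with Krt19.

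Krt5 correlated with Krt12 (r = 0.85, rho = 0.82) and with its filament partner Krt14 (r = 0.83, rho = 0.80), all with adjusted p = 2.37e-05. Both relations held without the 2 farthest samples (r = 0.82 and 0.81), in left eyes (0.83 and 0.88) and in right eyes (0.88 and 0.80). After the time point means were taken off they had r of 0.73 and 0.76. With Krt15 and Krt13 of the close set, Krt5 had r = 0.84 and 0.80 (rho = 0.83 and 0.82), all with the same adjusted p. Krt12 with Krt4 had r = 0.19 and rho = 0.19 (adjusted p = 0.345 and 0.34), and r = -0.10 once the time point means were taken off. Krt12 with Krt7 (r = 0.15, adjusted p = 0.468) and Krt12 with Krt19 (r = 0.25, adjusted p = 0.21) also missed the threshold of 0.05. Krt12 and Krt13, both type I genes of the chromosome 11 cluster, had r = 0.43 and rho = 0.52 (adjusted p = 0.0195 and 0.00682), against r = 0.95 for the neighbours Krt13 and Krt15.

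Krt18 went the other way to every stratified member. Its r was -0.47 with Krt12, -0.62 with Krt5, -0.60 with Krt14, -0.57 with Krt15, -0.61 with Krt13 and -0.52 with Krt4, with adjusted p from 0.000557 to 0.0117. It was also -0.54 with Krt7 and -0.49 with Krt19, so the split did not follow the division into simple and stratified keratins. In the 14 right eyes these values were nearer 0, at -0.33 with Krt12, -0.47 with Krt5, -0.31 with Krt14, -0.33 with Krt15, -0.29 with Krt13, -0.22 with Krt4, -0.46 with Krt7 and -0.14 with Krt19. Krt8 and Krt18, filament partners and genomic neighbours, had r = 0.12 and rho = 0.23 (adjusted p = 0.525 and 0.25); r was 0.08 in left eyes, 0.48 in right eyes and 0.26 without the 2 farthest samples. Krt8 had its highest r with Krt4 and Krt19, 0.48 with each (adjusted p = 0.0094), and 0.27 with each in the 14 right eyes.

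**Figure D2:**
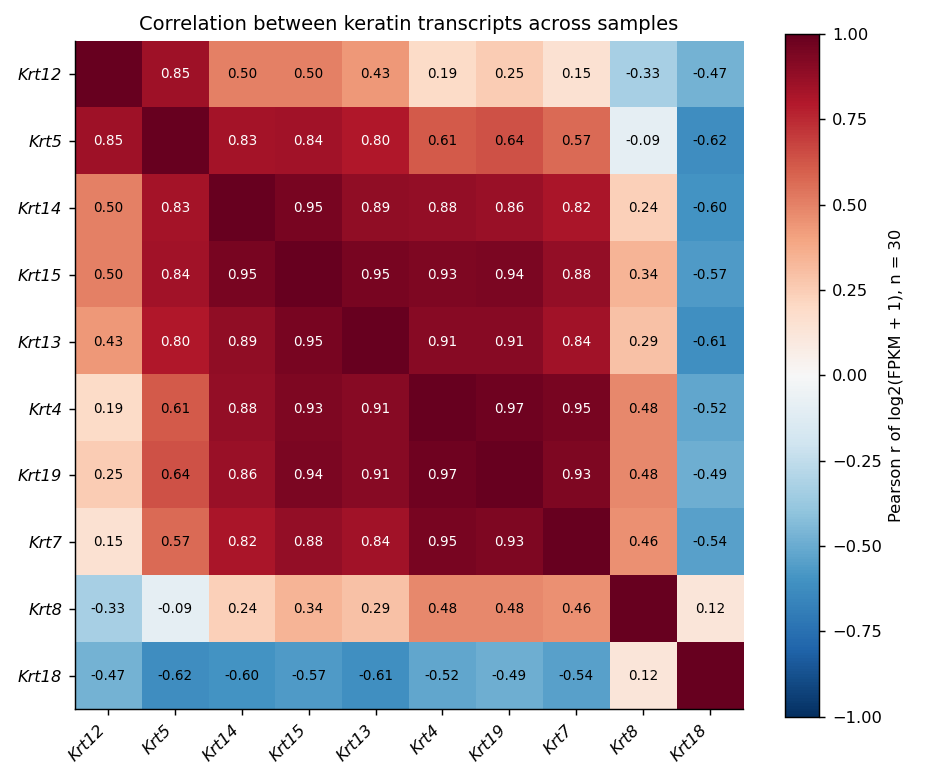
Pearson r of log2(FPKM + 1) between each pair of the 10 keratins over 30 samples, with the value in each cell and the colour scale from -1 (blue) to 1 (red). Krt12 has its highest value with Krt5 (0.85), the 6 genes Krt14, Krt15, Krt13, Krt4, Krt19 and Krt7 form a block from 0.82 to 0.97, and the row of Krt18 is negative with all but Krt8.

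The genes outside the 10 members with the most similar profile, by Pearson r over the 30 samples, are given as a description. For Krt12 they were Lypd2 (r = 0.977), Fam83a (0.968), Aldh3a1 (0.954), Slurp1 (0.945) and Dsg1a (0.944). Aldh3a1 is the abundant aldehyde dehydrogenase of corneal epithelium, Slurp1 a protein that epithelium secretes, and Dsg1a a desmosomal cadherin. For Krt13 they were Gsto1 (0.966), Ifitm1 (0.963), Anxa2 (0.946), Ceacam1 (0.944) and Krt6b (0.938). For Krt7 they were Pglyrp1 (0.929), Cbr2 (0.927), Cd24a (0.906), Ripply3 (0.888) and Ifitm1 (0.883), and for Krt19 Pglyrp1 (0.912), Ifitm1 (0.904), Ceacam1 (0.901), Cbr2 (0.9) and Gsto1 (0.885). For Krt18 they included Cspg5 (0.907), Slc16a8 (0.905), Psap (0.895) and Bsg (0.889), of which Slc16a8 is the lactate transporter MCT3 of RPE and Bsg its chaperone basigin. For Krt8 the closest genes were farther off: Golm1 (0.690), Hax1 (0.682), Nod2 (0.654), Kcnj16 (0.645) and Cyp2f2 (0.643).

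Lists of marker genes were scored in each sample as their mean log2(FPKM + 1), no list holding a keratin, and the 140 correlations of 10 members with 14 lists were adjusted together. Krt12 had r = 0.92 and rho = 0.94 with the 7 corneal genes (adjusted p = 6.09e-05 and 7.78e-05; 0.98 in left and 0.91 in right eyes), where 95% of the genes tested had an r below 0.53. Krt5 had r = 0.93 both with the corneal list and with the 12 genes of stratified epithelial identity, Krt14, Krt15 and Krt13 had 0.65, 0.64 and 0.61 with the corneal list (adjusted p = 0.000513, 0.000757 and 0.00129). Krt19, Krt4 and Krt7 had 0.39, 0.37 and 0.33 with it and missed the threshold (adjusted p = 0.0688, 0.0885 and 0.127). In the corneal list Aldh3a1 was highest, with a median of 1620.6 FPKM. Ly6d was lowest, with a median of 0.0560 FPKM and a listed 0 in 15 samples. Lypd2, Aldh3a1 and Slurp1, named above among the genes most like Krt12, belong to this list. The lists were chosen with earlier results of these data known, so the r and p values with them are a description only. Krt18 had r = 0.78 and rho = 0.72 with the 12 RPE genes (adjusted p = 6.09e-05 and 0.000183; 0.80 in left and 0.65 in right eyes, 0.74 without the 2 farthest samples), where 95% of genes had an r below 0.49. The other members apart from Krt8 had negative r with the RPE list, from -0.53 for Krt12 to -0.76 for Krt13 and Krt15. Krt8 had r = -0.02 with the RPE list (adjusted p = 0.954) and, of all lists, its value of largest size with rods, -0.52.

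**Figure D3:**
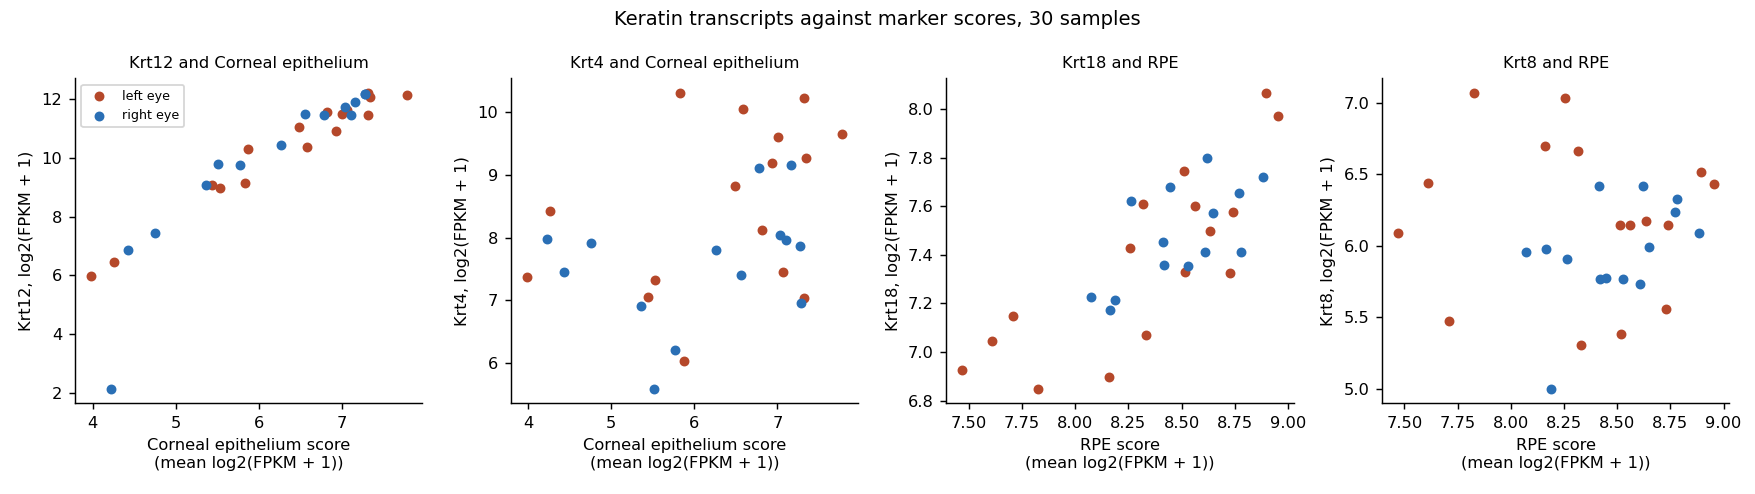
Level of a keratin (log2(FPKM + 1), vertical) against the mean log2(FPKM + 1) of a marker list (horizontal) in the 30 samples, red for left and blue for right eyes. With the corneal score r is 0.92 for Krt12 and 0.37 for Krt4, and with the RPE score it is 0.78 for Krt18 and -0.02 for Krt8.

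Genes of conjunctival goblet cells were low: the summed level of the 6 genes ran from 0 to 61.12 FPKM, with a listed 0 for Muc5b in 18 samples and a median of 3.75 FPKM for Agr2, the highest of the list. The goblet cell score had r = 0.81 with Krt7, 0.78 with Krt4, 0.77 with Krt19 and 0.73 with Krt13. Each had an adjusted permutation p of 6.09e-05, and 95% of the genes tested had an r below 0.45. In right eyes these r were 0.71, 0.64, 0.59 and 0.52. With the other members r ran from -0.46 (Krt18) to 0.68 (Krt15), and it was 0.01 with Krt12. The 8 genes of the cornified layer summed to 4.16 to 79.60 FPKM, with a median of 26.50 FPKM. Tgm1, a crosslinking enzyme, was the highest of them with a median of 15.83 FPKM, and Lor, the major envelope protein, was listed at 0 in 22 of 30 samples. Orbital gland genes Pip and Obp1a were at 0 in all 30 samples. Car6 of the same list was above 0 in every sample, with a minimum of 8.12 FPKM and a median of 20.11 FPKM. Of 17 desmosome and hemidesmosome genes, the anchors of keratin filaments, 16 were found. Median levels ran from 2.33 FPKM for Dsg1b to 118.9 FPKM for Jup. Their score had r = 0.97 with Krt5, 0.86 with Krt12, 0.49 with Krt7, -0.11 with Krt8 and -0.61 with Krt18. Of other intermediate filament genes, Vim, the filament of mesenchymal and glial cells, had the highest median, 535.4 FPKM, and Prph the lowest, 0.335 FPKM.

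The summed level of the 4 type II members moved closely with that of the 6 type I members. The type II sum ran from 605.2 to 4654.4 FPKM and the type I sum from 1674.7 to 12713.6 FPKM, each over more than a 7-fold range, while their ratio stayed between 0.295 and 0.417 with a median of 0.360. The SD of the log2 ratio was 0.121 over the 30 samples, against 0.643 for Krt5 to Krt14, 0.545 for Krt8 to Krt18 and 1.57 for Krt5 to Krt12 (1.10 without ZT19 replicate 3). With 25 type II and 28 type I genes of the 54 keratin genes the ratio was 0.390 to 0.546, with an SD of 0.118. For the 10 members without ZT14 replicate 3, which had their highest ratio, it was 0.295 to 0.404. Leaving out Krt12 widened it to 0.363 to 0.962, with an SD of 0.382. No other type I member was left out on its own, so whether this was particular to Krt12 was not tested. These sums were formed after the values had been seen and are a description without a test.

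**Figure D4:**
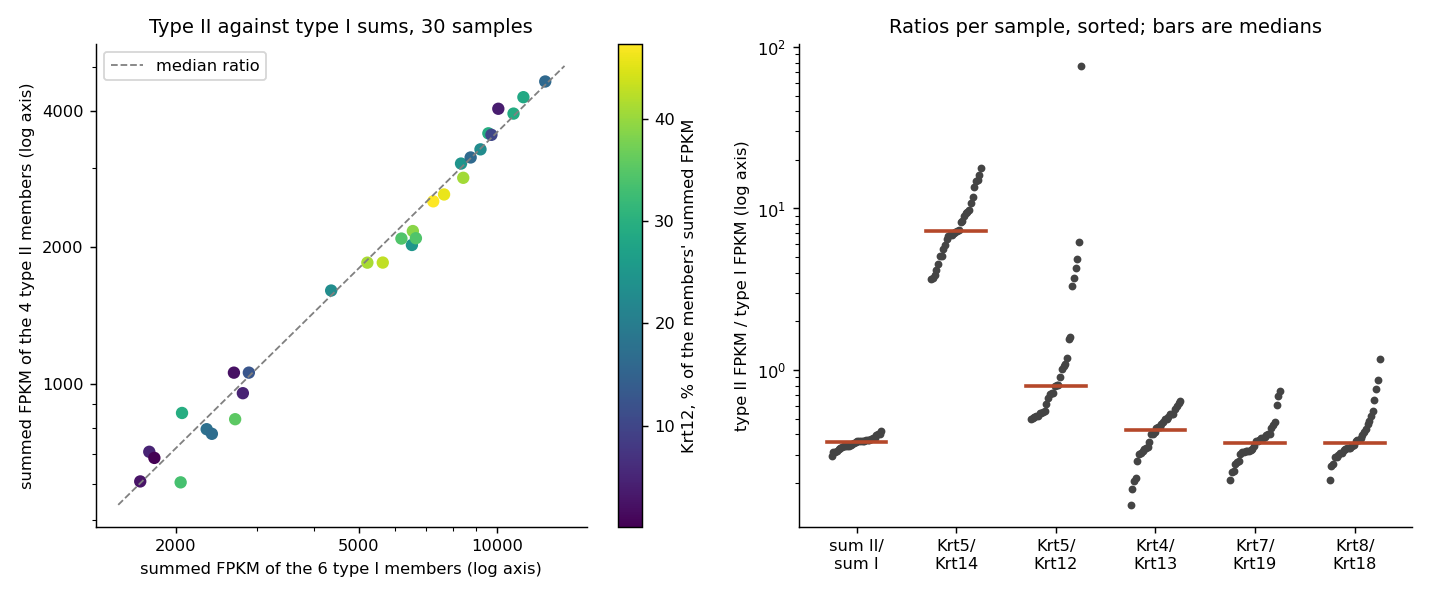
Left, summed FPKM of the 4 type II against the 6 type I keratins in each sample on log axes, coloured by the share of Krt12 in the sum of all 10, with a dashed line at the median ratio of 0.360. Right, ratio of a type II to a type I level in each of 30 samples (log axis, sorted, bars are medians): the ratio of sums stays within 0.295 to 0.417 and that of Krt5 to Krt12 reaches 76.2 in ZT19 replicate 3 and 6.20 in the other samples.

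Whether any of the 10 transcripts cycles over 24 h was tested with a cosine fit in limma on log2(FPKM + 1), adjusted over all 16741 genes tested. None of the 10 members passed, where 0.108% of all genes did, and none had an unadjusted p below 0.05 either, against 8.76% of all genes. The largest amplitude, the distance from mean to peak on the log2 scale, was that of Krt12, 1.29 ± 0.58 (SE) with a fitted peak at ZT 5.67, followed by Krt5 with 0.64 ± 0.27 at ZT 5.31. Without ZT19 replicate 3 the amplitude of Krt12 was 0.70. Krt18 had the smallest, 0.08 ± 0.09. The median over the members was 0.46, beside 0.22 over all genes tested, with median SEs of 0.26 and 0.17.

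A moderated F test in limma for any difference among the 6 times also called 0 of 10 members, against 0.0717% of all genes. Krt5, Krt12 and Krt15, 3 of 10, had an unadjusted p below 0.05, against 8.67% of all genes, and their adjusted p values were 0.304, 0.350 and 0.559. The 15 mice of ZT2, ZT4 and ZT9, taken as day, were then set against the 10 of ZT14 and ZT19, taken as night. This gave 0 adjusted calls among the members in limma, against 0.0299%. The highest differences were those of Krt12, 1.82 ± 0.73, and Krt5, 0.97 ± 0.33 on the log2 scale, each with an unadjusted p below 0.05 (2 of 10 members higher by day, beside 6.21% of all genes). Their adjusted p values were 0.381 and 0.337. Krt8, at -0.09 ± 0.20, and Krt18, at 0.02 ± 0.12, had differences smaller than their SE.

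The start of the light phase, ZT0, was then set against ZT19, late in the dark phase. The difference was 4.46 ± 1.13 for Krt12 and 2.17 ± 0.52 for Krt5 on the log2 scale, and from 1.47 ± 0.65 (Krt7) to 1.84 ± 0.60 (Krt14) for the other members apart from Krt8 and Krt18. The median over the 10 was 1.62 with 9 positive, beside -0.02 over all genes tested. No member passed in limma (0 of 10, against 0.0418% of all genes), the lowest adjusted p being 0.0749 for Krt5 and 0.0826 for Krt12. At an unadjusted p below 0.05, 8 of 10 members were higher at ZT0, against 7.05% of all genes, and 1 was lower, Krt18 with -0.48 ± 0.18, against 5.92%. Krt5, Krt14, Krt12, Krt15 and Krt13 did not overlap between the times, all 5 ZT0 mice lying above all 5 ZT19 mice; 2.99% of all genes did so in this direction. Krt8 was 0.10 ± 0.31.

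The calls for ZT0 against ZT19 changed when single libraries of other times were left out. Krt5 passed without ZT4 replicate 1 (adjusted p = 0.05), without ZT9 replicate 1 (0.0402) and without ZT14 replicate 3 (0.0487), and Krt12 passed without ZT9 replicate 1 (0.0473). Over all samples left out in turn the adjusted p of Krt5 ran from 0.0402 to 0.221. With eye as a term the differences were 1.94 for Krt5 and 4.39 for Krt12, both with adjusted p = 0.177. For the members that differed most by eye the term took the value further down, from 1.60 to 0.96 for Krt19, from 1.47 to 0.94 for Krt7 and from 1.79 to 1.18 for Krt4. Of the 5 eyes 3 were left at ZT0 and 1 was left at ZT19.

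Marker lists were compared between the same 2 times, and no gene of any list passed the adjusted threshold in limma. The summed level of the 7 corneal genes ran from 3104.8 to 4682.3 FPKM at ZT0 and from 341.0 to 1575.9 FPKM at ZT19. Of the 7, 6 were higher at ZT0, each with an unadjusted p below 0.05, against 7.05% of all genes in this direction. All 16 desmosome and hemidesmosome genes were higher, by a median of 1.98. Over all genes tested 8139 of 16741 were higher at ZT0. Of the 16 genes 0 passed the adjusted threshold and 14 had an unadjusted p below 0.05, against 7.05% of all genes in this direction. The summed 12 RPE genes ran from 7473.7 to 12852.5 FPKM at ZT0 and from 13927.8 to 17344.2 at ZT19. All 12 were lower at ZT0, with a median difference of -0.70. Of them 9 had an unadjusted p below 0.05, against 5.92% of all genes in this direction, and none passed the adjusted threshold. The 5 skeletal muscle genes summed to 2086.6 to 3843.9 FPKM at ZT0 and to 4423.3 to 17897.4 FPKM at ZT19. All 5 were lower at ZT0 with an unadjusted p below 0.05, against 5.92% of all genes in this direction. With the score of stratified epithelial identity as a term the difference of Krt12 was 2.44 (adjusted p = 0.796), that of Krt5 0.52 (0.824), and those of Krt13, Krt14, Krt15, Krt4, Krt19, Krt7 and Krt8 lay between -0.10 and 0.10. With the RPE score as a term, Krt12 had 3.21 (adjusted p = 0.63) and Krt18 -0.08 (0.949). In the same samples the stratified score had r from 0.67 (Krt12) to 0.93 (Krt5 and Krt13) with these members apart from Krt8, which had 0.11. Of its 12 genes 11 were themselves higher at ZT0, so a term of this kind cannot separate the list from the difference. The part of these lists in the differences was not tested.

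Left and right eyes, compared with the time points as terms in limma, differed most in Krt19. At ZT0 its left eyes had 755.7, 610.3 and 415.6 FPKM and its right eyes 404.2 and 182.6 FPKM. At ZT9 the left eyes had 505.6 and 464.0 FPKM and the right eyes 95.1, 105.9 and 181.0 FPKM. At ZT2 the 1 left eye, with 716.4 FPKM, was above all 4 right eyes, at ZT19 the 1 left eye, with 320.9 FPKM, was above all 4 right eyes, and at ZT14 the 1 right eye, with 54.17 FPKM, was below all 4 left eyes. In all 24 comparisons of a left with a right eye of the same time, Krt19 was therefore higher on the left, which held for 9 of the 16741 genes tested, or 0.0538%. The right eye of ZT14 is replicate 3, the library that stood apart; without it 20 of 20 comparisons were higher on the left and the fitted difference of Krt19 was 1.57 (adjusted p = 0.661). The other 8 of the 9 genes, named after their values were seen, were Prdx5, Sf3b6, Emc6, Cldn3, Dcp1a, Wdr89, Tnk1 and Trpv6.

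Left minus right was 1.61 ± 0.37 for Krt19, 1.53 ± 0.42 for Krt4, 1.33 ± 0.40 for Krt7, 1.11 ± 0.31 for Krt15, 1.09 ± 0.32 for Krt13 and 1.02 ± 0.40 for Krt14 on the log2 scale. These 6 had an unadjusted p below 0.05, against 7.36% of all genes in this direction, and none passed the adjusted threshold (0 of 10 members, and 0% of all genes), the lowest adjusted p being 0.156 for Krt19. These 6 genes also formed the close set of correlated members. Krt12, by contrast, had 0.16 ± 0.83 and was higher on the left in 10 of 24 comparisons, Krt5 had 0.58 ± 0.36, Krt8 0.38 ± 0.21 and Krt18 -0.14 ± 0.13. That the eyes differed in Krt19 and not in Krt12 was not tested as a difference between genes. ZT4 had no right eye and bears only on the time terms; without time terms the value of Krt19 was 0.92 (adjusted p = 0.915).

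No gene of any marker list passed the adjusted threshold between the eyes in limma. Of the 12 genes of stratified epithelial identity 11 were higher on the left, with a median of 0.79. An unadjusted p below 0.05 was found for 9 of them, against 7.36% of all genes in this direction. All 4 goblet cell genes tested were higher on the left, with a median of 1.24, and 3 had an unadjusted p below 0.05, beside the same 7.36%. Of these 4, Spdef and Tff1 were listed at 0 in 23 and 20 of the 30 samples, and Muc5ac had a median of 0.370 FPKM. Such genes passed the filter only through the samples in which they were high, so these counts are a description only. Over all genes tested 8849 of 16741 were higher on the left. The 5 rod genes had a median of -1.5, with sums of 22.75 to 8476.1 FPKM in left and 86.7 to 4980.8 FPKM in right eyes. The 12 RPE genes had a median of -0.29, their sums being 6093.8 to 19575.6 FPKM on the left and 9539.3 to 17344.2 on the right, and the corneal genes had a median of 0.30 with a median SE of 0.45, beside 0.02 over all genes tested; at an unadjusted p below 0.05 were 0 of 5 rod, 1 of 12 RPE and 0 of 7 corneal genes. With the score of stratified epithelial identity as a term, Krt19 had 0.99 (adjusted p = 0.947), and with the RPE score 1.21 (0.316). How the eye of each mouse was chosen is not given in the sources used here.

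**Figure D5:**
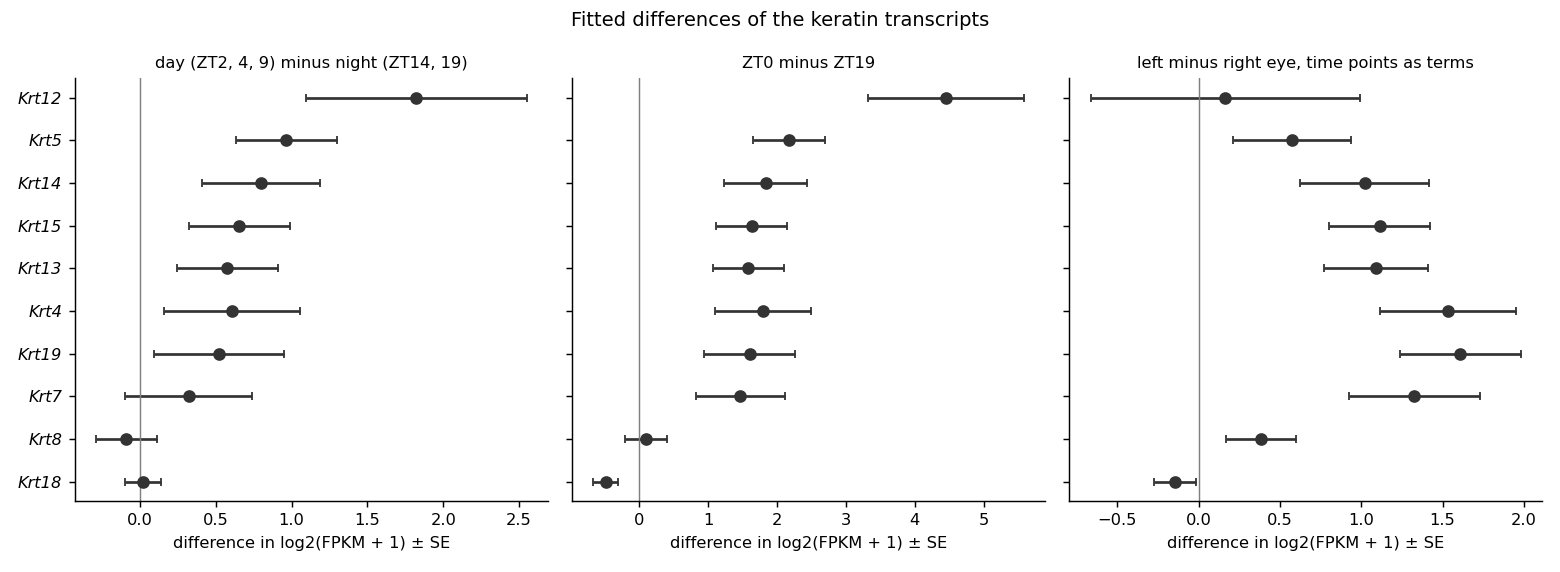
Fitted differences in log2(FPKM + 1), with their SE as bars, for the 10 keratins: day minus night, ZT0 minus ZT19, and left minus right eye. Krt12 and Krt5 lead in the first pair of panels (1.82 and 0.97; 4.46 and 2.17), and Krt19, Krt4 and Krt7 in the third (1.61, 1.53 and 1.33).

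Of the 44 other keratin genes in the table, 13 passed the filter of at least 1 FPKM in at least 5 samples, and 11 had a median of at least 1 FPKM. Krt6b and Krt6a, the type II keratins of stressed or fast-renewing stratified epithelium, had medians of 316.8 and 310.3 FPKM, with ranges of 88.28 to 820.6 and 60.81 to 789.3 FPKM; their sequences are nearly the same, so their separate levels are uncertain. Krt80 followed with a median of 67.14 FPKM, then Krt23 (19.91), Krt10 (17.02), Krt17 (16.47), Krt78 (5.07), Krt16 (3.23), Krt222 (2.30), Krt75 (1.96) and Krt1 (1.27). The keratins of cornified epidermis, Krt1 and Krt10, were thus far below Krt5, with maxima of 4.39 and 32.56 FPKM. In ZT0 minus ZT19 all 13 were positive with a median of 1.18, where 8139 of all 16741 genes tested were positive. Limma called 0 of the 13, against 0.0418% of all genes, the lowest adjusted p being 0.0741 for Krt80 (1.79 ± 0.42). Before adjustment 5 were higher at p below 0.05, against 7.05% of all genes.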

How the data were processed

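RNA of 30 RPE samples, 5 mice at each of 6 zeitgeber times, was sequenced as single reads of 75 bases, to a mean depth that the labels state. Per the submitters' processing notes, the build was mm10 and the tools included Cufflinks, STAR and DESeq2, with no version or order. The values used are FPKM that the authors deposited, 1 per gene and sample, written with decimal commas; counts were not used here, so no depth per sample and no counting interval is given, and at that stated depth 1 FPKM is at most about 20 reads per kilobase. Value columns were matched to samples by animal number and eye.

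Genes with at least 1 FPKM in at least 5 samples (16741) were analysed as log2(FPKM + 1), so differences of low genes are understated, using R 4.3.3 and limma 3.58.1, a variance trend and these models: a 24 h cosine, a mean per time point, and eye with time points as terms. Tests are two-sided, adjusted over all genes tested by Benjamini-Hochberg at 0.05. Positions are from GENCODE M21, in which 51625 of 51904 IDs were found. The fits were tested on simulated data. Alternatives were a pseudocount of 0.1, no filter, no trend, rescaling every sample to one total, marker scores or eye as a term, and each sample left out.

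The members, lists and tests were chosen with earlier results of these data known. Besides the members, the text names keratins with a median of at least 1 FPKM, the 5 genes most like 6 members (1 of these genes is not reported here), and genes highest or lowest in a marker list; other genes were named for their known roles or after their values were seen. Mice are the replicates. Ciliary and iris, endothelium, stroma, and melanocyte and Schwann cell lists were also scored; their r with Krt12 were -0.07, -0.68, -0.14 and -0.62, and with Krt18 0.36, 0.57, 0.38 and 0.42.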

Additional observations from a re-analysis of the deposited data

Results flagged for a closer look

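In each time point of 5 mice, the gap of the highest or lowest value to its neighbour on the log2(FPKM + 1) scale was divided by the whole range; above 0.71 the sample is named here. Chance alone marks about 1 in 20 groups, and 4 of 60 were marked. Krt4 in ZT4 replicate 1 (803.8 FPKM) had a share of 0.872, and Krt19 in the same mouse (603.8 FPKM) 0.724, the other 4 mice of ZT4 having at most 165.2 and 156.1 FPKM. Krt5 in ZT19 replicate 3 (261.1 FPKM) had 0.723, on the low side, in the mouse that also had the lowest Krt12. Krt8 in ZT2 replicate 2 (85.54 FPKM) had 0.716, on the high side, in the only left eye of that time.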

How the results depend on the processing

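In every alternative without a left-out sample, 0 of the 10 keratins passed in each of the 5 limma tests. With samples left out one at a time the number called ran from 0 to 2 for ZT0 against ZT19 (1 without ZT4 replicate 1, 2 without ZT9 replicate 1, 1 without ZT14 replicate 3) and stayed at 0 in the other 4 tests. Over all genes, ZT0 against ZT19 called 7 and, in the same alternatives, 1 with a pseudocount of 0.1, 2 with no filter, 4 with no trend, 0 with the stratified epithelium score, 1 with the RPE score and 1 with eye as a term, and from 1 to 107 with a sample left out; day against night called 5, and 3 with either score; left against right called 0, and 1 with a pseudocount of 0.1. The causes were not tested.

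Of 1480 recomputed differences and amplitudes of the members, 25 changed sign, all of them differences. An amplitude is never negative and so could not change sign. No member was called in the main fits, so no called value could be among the 25. With the stratified epithelium score as a term, day minus night became -0.14 for Krt13, -0.02 for Krt15, -0.22 for Krt19, -0.14 for Krt4 and -0.32 for Krt7; ZT0 minus ZT19 became -0.08 for Krt13, -0.10 for Krt19, -0.03 for Krt7 and -0.06 for Krt8; left minus right became -1.0 for Krt12, -0.27 for Krt5 and 0.02 for Krt18. With the RPE score, day minus night was -0.15 for Krt7, and left minus right -0.40 for Krt12 and 0.03 for Krt18. With eye as a term, ZT0 minus ZT19 of Krt8 was -0.06. Over single samples left out, day minus night ran from -0.02 to 0.08 for Krt18 and from -0.17 to 0.05 for Krt8, ZT0 minus ZT19 of Krt8 from -0.09 to 0.31, and left minus right of Krt12 from -0.22 to 0.47. The r of Krt12 with Krt4 was -0.10 with time point means taken off. The r of Krt8 with the RPE score was 0.46 in right eyes, 0.05 without the 2 farthest samples, 0.03 with time means taken off and from -0.11 to 0.10 with a sample left out. No paired analysis was possible because replicate numbers follow accession order only.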
